A study of Mus musculus with 68 samples.

Results

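Bet1 and 9 other genes of the SNARE proteins that work between the endoplasmic reticulum (ER) and the Golgi were examined in single dopamine neurons of the mouse ventral tegmental area. The genes were Bet1, Bet1l, Use1, Stx5a, Stx18, Gosr1, Gosr2, Bnip1, Sec22b and Ykt6, which are 10 of the 36172 genes in the deposited table. Bet1 was chosen from earlier results of these same cells, in which its genotype difference was known, and the other 9 genes were chosen by their known role beside it. The genotype values of Bet1 are therefore a description and not a finding. Each neuron had been recorded by patch clamp and its contents drawn into the pipette for sequencing (Patch-seq).

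The neurons came from 12-month-old mice of 2 groups, with 33 cells from 3xTg and 35 cells from WT. 3xTg mice are homozygous for human transgenes that include APP Swe and tau P301L and are used as a model of amyloid and tau pathology on a hybrid C57BL/6;129X1/SvJ;129S1/Sv background. The WT mice were a separate non-transgenic line of that hybrid background, bred in parallel, so that line and transgenes cannot be told apart. Both sexes were used in the study, and the mouse behind each cell is not named. Each genotype was for this reason taken as 1 sample, no p-value is given, and an SD over cells says nothing of the variation between animals.

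SNARE proteins are the membrane-anchored helices that pull a transport vesicle onto its target membrane. A fusion complex takes 1 helix of each of the classes Qa, Qb, Qc and R, which wind into a bundle that is later taken apart by the ATPase NSF. Stx5a (Qa), Gosr2 (Qb), Bet1 (Qc) and Sec22b (R) form the complex of ER-to-Golgi transport. Stx5a also pairs with Gosr1 (Qb), Bet1l (Qc) and Ykt6 (R) in transport at the Golgi. Stx18 (Qa), Bnip1 (Qb), Use1 (Qc) and Sec22b (R) serve the return of vesicles to the ER. Neurons use this route for most receptors, channels and transporters that reach their surface.

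Counts were low and many cells had none, so each gene is given in several ways. A normalized count is the count divided by the size factor of the cell. For the mean difference, log2(normalized count + 1) was averaged over the cells of a genotype and the WT average was taken from that of 3xTg, a scale that understates the change of low values. The log2 ratio of summed counts compares the counts summed over the cells of each genotype, each as CPM (counts per 1000000 counts of that genotype). Intervals at 95% are exact (Clopper-Pearson for shares of cells, Poisson and binomial for sums and ratios) and cover counting error only, since the libraries were amplified and no molecular identifiers are stated. All 10 genes had a count in at least 14 of the 68 cells and passed the filter that left 11414 genes.

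The cells differed in other measures as well. Totals ranged from 676556 to 1678624 counts in 3xTg and from 492505 to 1327367 in WT, and the median number of genes with a count was 8511 and 7476. The labels number the cells, and these numbers form blocks of a single genotype called runs here, which are WT 1 to 22 (17 cells), 3xTg 24 to 55 (21 cells), WT 57 to 74 (15 cells), 3xTg 76 to 92 (12 cells) and WT 94 to 96 (3 cells), and the labels do not say what the numbers mark. The median number of genes differed between these runs, from 5233 in WT 1 to 22 to 9308 in 3xTg 76 to 92. The 6 dopamine neuron markers summed to 6737 CPM or more in every 3xTg cell (median 19973) and to 4652 CPM or more in every WT cell (median 15057). All 6 were counted together in 8 3xTg and 5 WT cells. Each of the 6 had a higher sum in 3xTg, with a median log2 ratio of summed counts of 0.35. All 7 microglia markers and all 5 oligodendrocyte markers were counted in some cells. The median log2 ratio of summed counts over the 4 microglia markers that passed the filter was −1.83, and over the 4 oligodendrocyte markers −1.31, both lower in 3xTg. Summed over its list, a cell held 0 to 4737 CPM of microglia markers in 3xTg (median 36.1) and 0 to 3854 in WT (median 50), and 5.66 to 583 CPM of oligodendrocyte markers in 3xTg (median 35.2) and 7.94 to 2540 in WT (median 43.6). Of the 5 astrocyte markers, Aldh1l1 was at 0 in every cell, and the list was counted in 7 3xTg cells (up to 272 CPM) and 11 WT cells (up to 2410 CPM). Each of the 68 cells had a count of at least 1 of the 4 GABA neuron markers, and 0 cells had all 4. The list summed to a median of 28.6 CPM in 3xTg and 38.1 in WT. Of the 4 endothelial markers, Cldn5, Pecam1 and Ly6c1 were at 0 in every cell, and 1 cell of each genotype had a count of the list. Over all genes that passed the filter, the median mean difference was 0.44 and the median log2 ratio of summed counts −0.045, so that the average over cells was shifted upward in 3xTg and the sums were not. The part of these differences in the values of the SNARE genes was not tested.

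Bet1 is a small Qc-SNARE and lies on mouse chromosome 6 from 4076904 to 4086927 on the minus strand (mm10). The 250 bases before its start, at chr6:4086931-4087180, are shown because Bet1 had the widest genotype difference of the 10 genes over all cells, and those of Gosr2, its Qb partner, at chr11:103697724-103697973, because they held the only match among the members to a searched motif. Both are on the minus strand, are given 5′ to 3′ and were taken from RefSeq on GRCm38.p6, the assembly that mm10 names. Capitals mark the motif.
Bet1: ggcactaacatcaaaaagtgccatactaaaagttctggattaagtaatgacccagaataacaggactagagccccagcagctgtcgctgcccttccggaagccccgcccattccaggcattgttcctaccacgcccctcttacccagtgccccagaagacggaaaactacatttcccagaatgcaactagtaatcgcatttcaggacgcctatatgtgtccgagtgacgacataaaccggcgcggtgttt
Gosr2: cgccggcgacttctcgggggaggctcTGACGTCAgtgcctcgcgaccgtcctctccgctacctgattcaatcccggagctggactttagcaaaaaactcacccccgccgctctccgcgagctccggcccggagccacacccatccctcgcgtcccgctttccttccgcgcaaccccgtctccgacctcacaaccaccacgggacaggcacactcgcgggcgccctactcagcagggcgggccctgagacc

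The motifs searched on both strands were the cAMP response element TGACGTCA, the unfolded protein response element TGACGTGG and the ER stress response element by its name. They occurred in 1.55%, 0.563% and 0.113% of 32851 upstream stretches of the same length. The Bet1 stretch held none of the 3 and had a GC content of 50.8% with 12 CpG dinucleotides, against a median of 52.4% and 6 CpG over all stretches. The Gosr2 stretch shown had 68% GC and 28 CpG. A second Gosr2 start in the same source had a stretch with 32.8% GC, 3 CpG and no match. The Ykt6 stretch had 70% GC and 32 CpG. A match or its absence describes these letters alone.

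In 3xTg, 27 of 33 cells had a Bet1 count (81.8%, with an interval of 64.5 to 93%), while in WT 13 of 35 cells did (37.1%, 21.5 to 55.1%). Its normalized count spanned 0 to 1193 in 3xTg (median 33.5) and 0 to 297 in WT (median 0). The ranges overlapped over the whole WT range. More WT cells had no count, and 3xTg cells 24, 26 and 50, with 1193, 544 and 428, lay above the highest WT cell. Among cells with a count, the median was 41 in the 27 3xTg cells and 45.4 in the 13 WT cells. The mean of log2(normalized count + 1) was 4.59 ± 2.95 in 3xTg (SD over 33 cells) and 1.94 ± 2.84 in WT (35 cells). The mean difference was 2.65, or 2.21 above that of the median gene, and it was higher than that of 99.6% of all genes that passed the filter. The summed counts were 3106 in 3xTg and 990 in WT, which are 84.6 CPM (81.7 to 87.6) and 29.1 CPM (27.3 to 31), a log2 ratio of 1.54 (1.44 to 1.64) or 2.91-fold. With 700471 counts drawn from each cell, the 10th percentile of the totals, Bet1 was counted in 27 of 31 3xTg cells (87.1%) and 12 of 30 WT cells (40%), and 2 3xTg and 5 WT cells were too shallow to enter. Thinning hardly altered how many of the 10 genes were counted, with a mean per cell of 7.03 in 3xTg and 5.53 in WT. Over all cells these means were 7.03 and 5.54, so the thinned shares do not address the number of genes counted per cell. With a minimum of 10 counts Bet1 was present in 23 3xTg and 11 WT cells. Without the 5 3xTg and 5 WT cells that had a count of Pvalb, Tmem119, P2ry12 or Aldh1l1, markers of other cell types, its share differed by 45.5 percentage points and its log2 ratio of summed counts was 1.5.

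**Figure D1:**
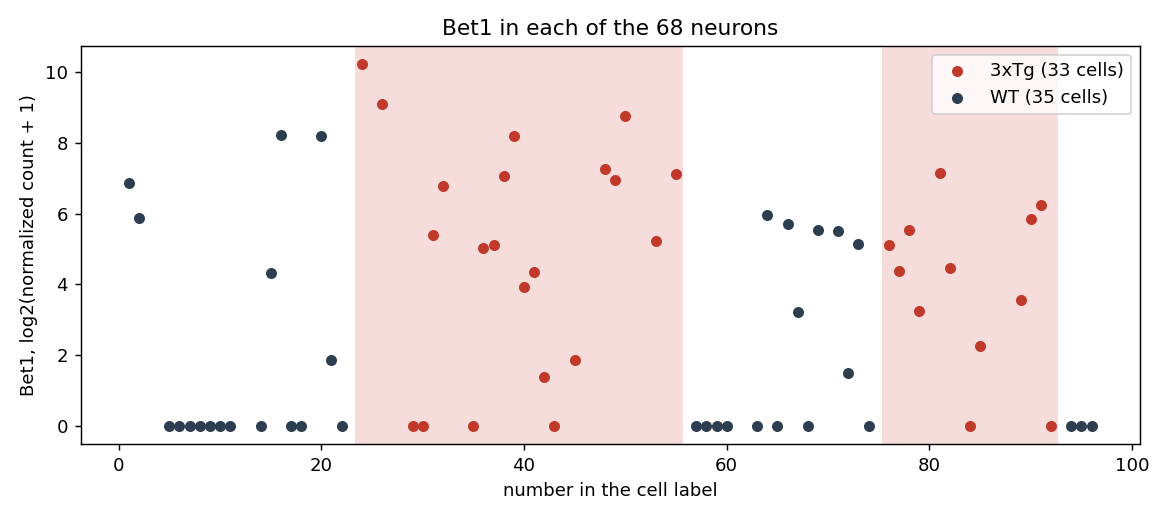
Bet1 in each neuron as log2(normalized count + 1), against the number in the cell label; red points are the 33 3xTg cells, dark points the 35 WT cells, and shaded bands mark the 3xTg runs. Most WT cells sit at 0, and the 3 cells of WT 94 to 96 are all at 0, while 6 of the 33 3xTg cells are at 0.

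The summed Bet1 count rested on few cells. The 4 3xTg cells with the highest normalized count (24, 26, 50 and 39) held 56.1% of the 3xTg sum, and cell 24 alone held 778 counts or 25%. These 4 libraries had 3695 to 5864 genes with a count, below the 3xTg median of 8511. In WT, cells 16 and 20 held 39.5% of the sum, with 5154 and 4846 genes. The rank correlation of Bet1 with the number of genes counted was −0.27 over the 33 3xTg cells and 0.28 over the 35 WT cells, values that share each cell's library. Without 3xTg cell 24 the log2 ratio of summed counts was 1.17, and without WT cell 16 it was 1.86. In the 19 3xTg and 15 WT cells with at least the median of 7944.5 genes, Bet1 was counted in 15 (78.9%) and 7 (46.7%), and its sums of 796 and 349 gave 36.6 and 25 CPM, a log2 ratio of 0.55. The share of cells thus differed by 32.3 percentage points there and by 44.7 over all cells, while the difference of summed counts fell below 2-fold. In these cells the mean difference of Bet1 was 1.62 and those of Gosr1 (1.96), Stx18 (1.80) and Ykt6 (1.73) were larger, as were the log2 ratios of summed counts of Ykt6 (0.81), Stx18 (0.68) and Gosr1 (0.60).

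The runs of label numbers gave the same direction and different sizes. Bet1 was counted in 17 of 21 cells of 3xTg 24 to 55 (81%) and in 6 of 17 cells of WT 1 to 22 (35.3%). In the later pair it was counted in 10 of 12 cells of 3xTg 76 to 92 (83.3%) and 7 of 15 cells of WT 57 to 74 (46.7%). The mean difference was 2.86 in the first pair and 1.81 in the second, where Stx18 (2.28), Use1 (1.95) and Sec22b (1.93) were above it. The log2 ratio of summed counts was 1.69 (1.56 to 1.82) in the first pair and 0.37 (0.17 to 0.57) in the second, where Sec22b (1.45), Gosr1 (0.91), Ykt6 (0.56) and Stx18 (0.42) were above it. Within 3xTg the later run was lower than the earlier one by a log2 ratio of −1.96, with 31.4 against 122 CPM, a wider difference of sums than between the genotypes over all cells. The 4 highest cells all lay in the earlier run. By means over cells the later run minus the earlier one was −0.95, smaller in size than the genotype difference of 2.65, and the shares of cells were 83.3% and 81%. In WT 94 to 96 none of the 3 cells had a Bet1 count, which allows a share of up to 70.8%.

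Bet1l, a Bet1-like Qc-SNARE of Golgi transport, did not show a difference of that size. It was counted in 25 of 33 3xTg cells (75.8%, 57.7 to 88.9%) and 22 of 35 WT cells (62.9%, 44.9 to 78.5%). Its normalized count ran from 0 through a median of 26 to 460 in 3xTg, and from 0 through 15.3 to 178 in WT. The ranges overlapped. The mean difference was 0.74 and the log2 ratio of summed counts 0.16 (0.056 to 0.27), from sums of 1631 and 1352. In the first pair of runs the ratio was 0.33 and in the second −0.26. In thinned cells the mean difference was 0.27, and in the cells with at least the median number of genes it was −0.034 and the ratio −0.51. The highest 3xTg cell for Bet1l was again cell 24, with 300 counts or 18.4% of the sum, and without it the ratio turned to −0.089.

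Use1, the Qc-SNARE of retrograde transport to the ER, had the highest level of the 10 genes. Per kilobase of its longest protein-coding transcript its level was 129 CPM in 3xTg. On this scale Bet1 followed in 3xTg with 55.8 (53.9 to 57.8), ahead of Stx5a with 40.2. That place rested on the earlier run, since in 3xTg 76 to 92 Bet1 stood at 20.7, behind Use1 (126), Stx5a (43.5), Sec22b (35.4) and Gosr2 (21.8), and in the 3xTg cells with at least the median number of genes at 24.1, behind Use1, Stx5a and Sec22b (24.6). In WT, Bet1 stood at 19.2 (18 to 20.4), behind Use1, Stx5a, Sec22b, Bnip1 and Gosr2, and its counting interval overlapped that of Bet1l (16.6 to 18.5). Gosr1 was the lowest in both genotypes, at 7.02 and 8.23. Use1 was counted in 30 of 33 3xTg cells (90.9%) and 28 of 35 WT cells (80%), with normalized counts of 0 to 524 (median 110) and 0 to 1326 (median 76.2). Its mean difference was 1.07, while its log2 ratio of summed counts was −0.18 (−0.23 to −0.12). The mean difference was 0.0082 in the first pair of runs and 1.95 in the second. The log2 ratio of summed counts was −0.53 and 0.14 in the same pairs, and over all cells it turned to 0.082 without WT cell 6, which held 18.9% of the WT sum.

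**Figure D2:**
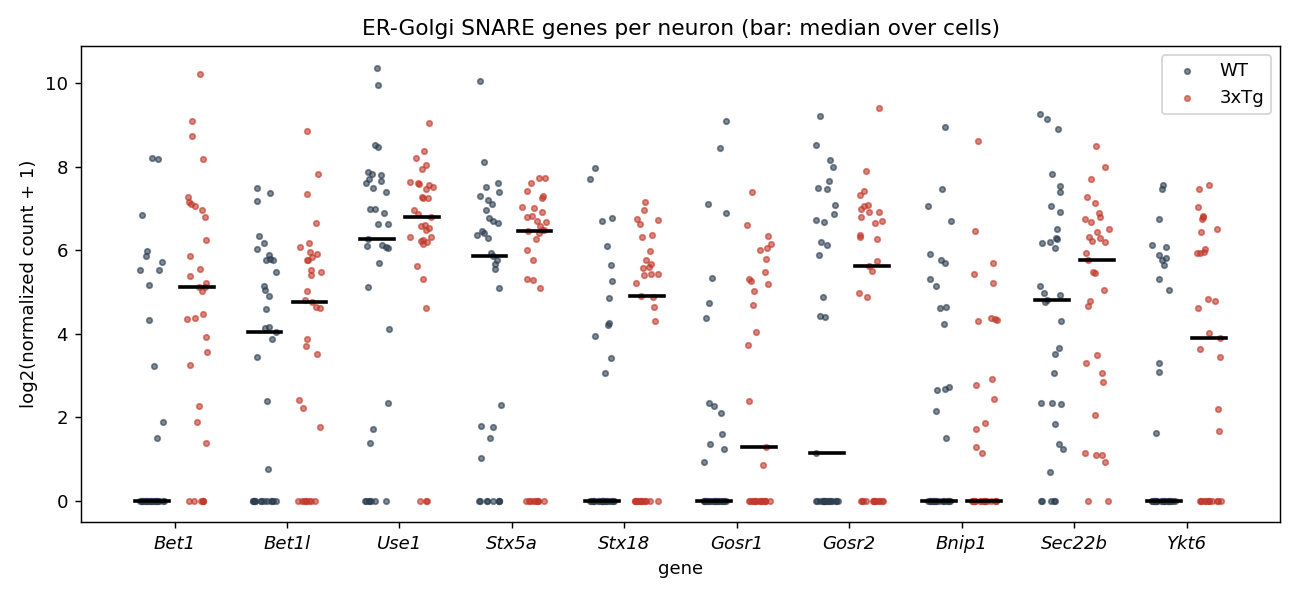
Each of the 10 genes in every neuron as log2(normalized count + 1); dark points are WT cells, red points 3xTg cells and black bars the median over cells. Bet1 has a median of 0 in WT and lies above 5 on this scale in 3xTg, whereas Use1, Stx5a and Sec22b have medians well above 0 in both genotypes and Bnip1 a median of 0 in both.

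Among the Qa-SNAREs, Stx5a, the syntaxin shared by both Stx5a complexes, was counted in 24 of 33 3xTg cells (72.7%) and 26 of 35 WT cells (74.3%). Its normalized counts spanned 0 to 212 in 3xTg (median 86.8) and 0 to 1056 in WT (median 56.7). The mean difference was 0.33 and the log2 ratio of summed counts −0.18 (−0.25 to −0.12). The WT maximum was cell 96, which held 18.7% of the WT sum, and without it the ratio turned to 0.093. In the cells with at least the median number of genes the mean difference was −0.24. Stx18, the syntaxin of the ER, was counted in 20 of 33 3xTg cells (60.6%, 42.1 to 77.1%) and 13 of 35 WT cells (37.1%, 21.5 to 55.1%). Its normalized counts spanned 0 to 142 in 3xTg (median 29.1) and 0 to 251 in WT (median 0). Its mean difference of 1.51 was the next highest after Bet1, and its log2 ratio of summed counts was 0.35 (0.23 to 0.46). WT cell 72 held 26.4% of the WT sum, and without it the ratio was 0.74. Stx18 was higher in both pairs of runs, with log2 ratios of 1.08 and 0.42, while all 3 cells of WT 94 to 96 had a count of it.

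Among the Qb-SNAREs, Gosr1 of the Golgi was counted in 18 3xTg cells (54.5%) and 14 WT cells (40%). Its normalized counts spanned 0 to 168 in 3xTg (median 1.44) and 0 to 546 in WT (median 0). Its mean difference was 1.0 and its log2 ratio of summed counts −0.23 (−0.35 to −0.11), and WT cell 16 held 33.6% of the WT sum. The ratio turned to 0.32 without that cell and was 0.60 in the cells with at least the median number of genes. Gosr2, the Qb partner of Bet1, was counted in 20 3xTg cells (60.6%) and 18 WT cells (51.4%), with normalized counts of 0 to 677 (median 48.4) and 0 to 592 (median 1.22). Its mean difference was 0.69, with 0.054 and 1.42 in the 2 pairs of runs. Its log2 ratio of summed counts was −0.039 (−0.12 to 0.038), an interval that includes 0, and leaving out single cells moved it between −0.37 (without 3xTg cell 50) and 0.19 (without WT cell 7). Bnip1, the Qb-SNARE of the ER complex that also carries a BH3-like motif, was counted in 16 3xTg cells (48.5%) and 17 WT cells (48.6%). It ranged from 0 to 393 in 3xTg and from 0 to 496 in WT, with medians of 0 in both. Bnip1 was the member with a mean difference below 0 (−0.47), and its log2 ratio of summed counts was −0.70 (−0.84 to −0.56). Cell 43 held 45.9% of its 3xTg sum and cell 96 held 28.3% of its WT sum. The ratio was −1.56 without 3xTg cell 43 and −0.24 without WT cell 96.

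Of the R-SNAREs, Sec22b, which serves both the forward and the return route, was counted in 31 of 33 3xTg cells (93.9%) and 29 of 35 WT cells (82.9%). Its normalized counts spanned 0 to 359 in 3xTg (median 53.1) and 0 to 614 in WT (median 26.9). The median was higher and the sum lower in 3xTg, with a mean difference of 0.48 and a log2 ratio of summed counts of −0.33 (−0.40 to −0.25). The ratio was −0.12 without WT cell 9 and 0.25 in the cells with at least the median number of genes. Its direction turned between the pairs of runs, from −1.38 (−1.48 to −1.28) in the first to 1.45 (1.30 to 1.59) in the second. The WT runs themselves differed, with 137 CPM in WT 1 to 22 and 36.6 CPM in WT 57 to 74. Ykt6, a lipid-anchored R-SNARE, was counted in 21 3xTg cells (63.6%) and 14 WT cells (40%). Its normalized counts had medians of 13.8 and 0 and reached 188 in both genotypes. Its mean difference was 1.25 and its log2 ratio of summed counts 0.49 (0.37 to 0.60), and the ratio was 0.23 and 0.56 in the 2 pairs of runs. Without WT cell 1 the ratio was 0.79, and in thinned cells the mean difference was 0.62 and the ratio 0.095.

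**Figure D3:**
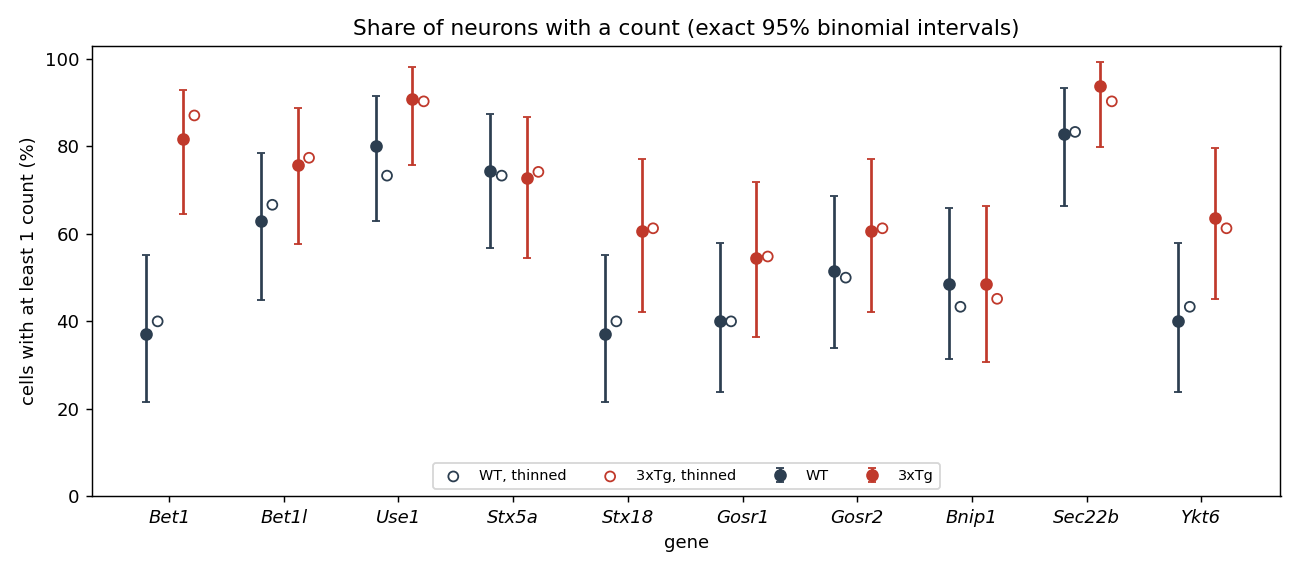
Share of cells with at least 1 count of each gene, in percent; filled points with bars are all cells with exact 95% intervals, and open points are cells thinned to 700471 counts. Bet1 stands at 37.1% in WT and 81.8% in 3xTg, and Stx5a and Bnip1 are nearly level. The intervals cover counting over cells and compare no animals.

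Over the 10 genes, 1 (Bet1) had a sum at least 2-fold higher in 3xTg, and 0 had a sum at least 2-fold lower. Of all genes that passed the filter, 8.82% were at least 2-fold higher and 10.5% at least 2-fold lower. By means over cells, 5 genes (Bet1, Use1, Stx18, Gosr1 and Ykt6) had a difference of at least 1, against 24.3% of all genes, and 0 had one of −1 or less, against 0.78%. The median mean difference of the 10 genes was 0.87 against 0.44 over all genes, and their median log2 ratio of summed counts was −0.11 against −0.045. The mean difference was above 0 in 90% of the 10 genes and in 72.8% of all genes, and the sum ratio in 40% and 47.6%. The share of cells with a count was higher in 3xTg by a median of 12 percentage points over the 10 genes and 7.53 over all genes. Since Bet1 was chosen with its values known, its part in these counts is fixed by that choice.

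**Figure D4:**
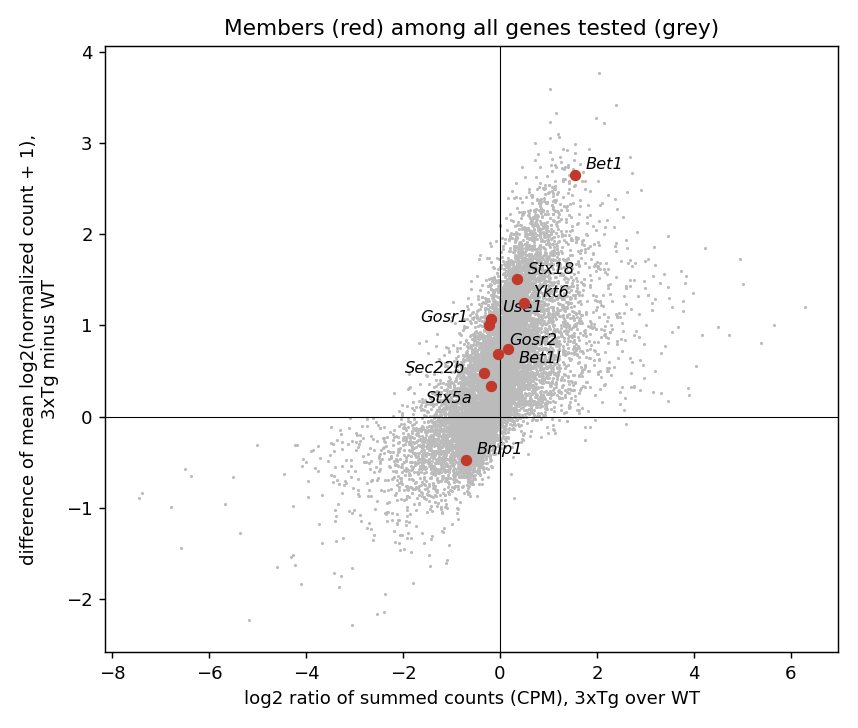
Mean difference of log2(normalized count + 1) against the log2 ratio of summed counts, 3xTg to WT, for all 11414 genes that passed the filter (grey) and the 10 SNARE genes (red, named). Bet1 lies at 1.54 and 2.65, toward the upper edge of the grey points, and the other 9 genes lie within the main cloud, with Bnip1 below 0 on both axes.

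Between the pairs of runs, 3 genes (Bet1, Stx18 and Ykt6) were higher in 3xTg by summed counts in both, and 0 were lower in both. Over all genes, 25.3% were higher in both and 24.7% lower in both. For the remaining 7 genes the sign of the ratio changed between the pairs. Of these, Sec22b, Gosr1 and Bnip1 spanned the most, with Gosr1 at −1.06 and 0.91 and Bnip1 at 0.45 and −0.74. The median log2 ratio over all genes was 0.17 in the first pair and −0.17 in the second.

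**Figure D5:**
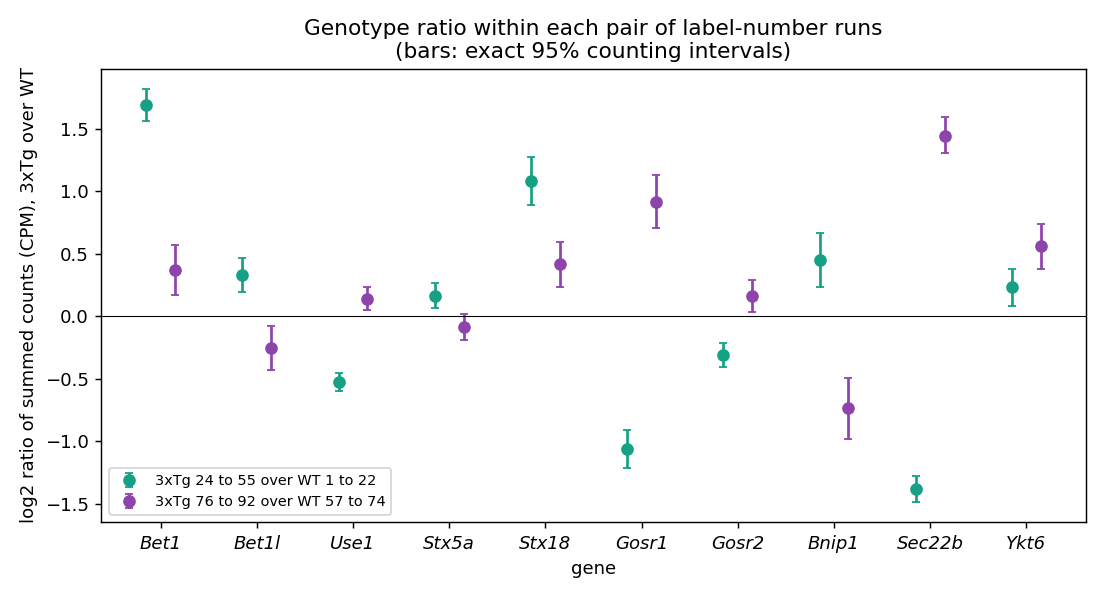
Log2 ratio of summed counts, 3xTg over WT, for each gene within the first pair of runs (green) and the second pair (purple); bars are exact 95% counting intervals. Bet1 stands at 1.69 and 0.37, Stx18 and Ykt6 are above 0 in both pairs, and Sec22b and Gosr1 move from below −1 to above 0.9.

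The number of the 10 genes counted in a cell had a median of 7 in 3xTg (range 1 to 10) and 6 in WT (1 to 9), and 3 3xTg cells and 0 WT cells had all 10. The median was 5 in WT 1 to 22, 7 in both 3xTg 24 to 55 and WT 57 to 74, and 8.5 in 3xTg 76 to 92. In the same 4 runs the median number of all genes counted was 5233, 7648, 8441 and 9308. All 4 helices of the ER-to-Golgi complex (Stx5a, Gosr2, Bet1 and Sec22b) were counted in 14 of 33 3xTg cells (42.4%, 25.5 to 60.8%) and 5 of 35 WT cells (14.3%, 4.81 to 30.3%). For the Golgi complex the numbers were 10 of 33 (30.3%) and 5 of 35 (14.3%), and for the ER complex 14 of 33 (42.4%) and 7 of 35 (20.0%). In thinned cells the shares for these 3 complexes were 45.2%, 32.3% and 38.7% in 3xTg and 16.7%, 16.7% and 23.3% in WT. By run, the ER-to-Golgi complex was complete in 5.88% of cells in WT 1 to 22, 28.6% in 3xTg 24 to 55, 26.7% in WT 57 to 74 and 66.7% in 3xTg 76 to 92. It holds Bet1, so that its genotype values are in part fixed by the choice of that gene. Of all genes that passed the filter, 71.9% had a higher share of cells with a count in 3xTg. Other sets of 4 genes were not examined, so the values of the 3 complexes have no background beside them.

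The machinery around these SNAREs was described from lists of genes by role. Of the COPII coat, which forms the vesicles that leave the ER, 2 of 13 genes that passed the filter were at least 2-fold higher by summed counts and 0 lower, with a median log2 ratio of 0.27. By means over cells, 7 of the 13 had a difference of at least 1, with a median of 1.13. Sec31a, the outer cage subunit, was the highest at 2.14, from sums of 1378 and 290 and counts in 22 3xTg and 11 WT cells, and it stood at 3.46 in the first pair of runs and 0.64 in the second. Sec24a, a cargo-binding subunit, was the lowest at −0.91 (−1.11 without 3xTg cell 42 and −0.60 without WT cell 9), with a mean difference of −0.096. Of the COPI coat of the return route, 0 of 11 genes passed 2-fold in either direction, with Arfgap1 highest at 0.95 (1.30 without WT cell 57) and Arfgap3 lowest at −0.89, both GTPase-activating proteins of Arf1. By means over cells, 8 of the 11 COPI genes had a difference of at least 1, with a median of 1.42. WT cell 9 held 68% of the WT Arfgap3 sum, and without it the ratio turned to 0.70. Arfgap1 turned from 2.64 in the first pair of runs to −0.14 in the second.

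Of the tethers, which hold a vesicle before fusion, 1 of 29 genes was at least 2-fold higher and 3 were lower. Trappc10, of a TRAPP complex, was the highest at 2.73, on sums of 258 and 36, of which cell 24 held 50% in 3xTg, and the ratio was 1.78 without that cell, 3.55 without WT cell 58 and 5.25 and 0.91 in the pairs of runs. Cog2, of the Golgi COG complex, was the lowest at −1.66, counted in 12 cells of each genotype. WT cell 9 held 40.6% of its WT sum, and without that cell the ratio was −0.96, short of 2-fold. Of the 7 SNARE regulators, 2 were higher and 0 lower. Scfd2, a relative of the Sec1-type protein that binds Stx5a, was the highest at 1.07 with 0.90 when 3xTg cell 35 was left out, and stood at 1.41 and 0.88 in the 2 pairs of runs. Napb, a neuronal SNAP that brings NSF to SNARE bundles, was the lowest at −0.089, counted in all 68 cells, and turned to 0.065 without WT cell 9. Of the cargo receptors, 1 of 19 was higher and 0 lower, with Lman2 highest at 1.21 (1.93 and 0.28 in the pairs of runs) and Kdelr1, a receptor that retrieves ER proteins, lowest at −0.77 (−0.33 without WT cell 17 and −1.36 without 3xTg cell 42).

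Of the SNAREs of other compartments, 3 of 23 were at least 2-fold higher and 1 was lower. Vamp1, an R-SNARE of synaptic vesicles, was the highest at 1.97, from sums of 1391 and 330, and it was higher in both pairs of runs (2.62 and 1.45). Stx2, a plasma membrane syntaxin, was the lowest at −1.38 (−0.89 without WT cell 65 and −2.06 without 3xTg cell 40), on sums of 166 and 401, and turned from 2.53 to −4.53 between the pairs of runs. By means over cells, a difference of at least 1 was seen in 12 of 29 tethers, 3 of 7 SNARE regulators, 5 of 19 cargo receptors and 8 of 23 other SNAREs, and 0 genes of the 6 lists had one of −1 or less. The shares in these lists are to be read against 8.82% and 10.5% of all genes past 2-fold by sums and 24.3% by means, a scale on which the median of all genes was 0.44.

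The genes that varied most like Bet1 from cell to cell were not its SNARE partners. Likeness was the mean of the Spearman correlations of log2(normalized count + 1) over the 33 3xTg and over the 35 WT cells, for 7303 genes with a count in at least 34 cells, and is a description in which points share library and depth. The highest were Tuba3b (0.47), Snrk (0.44), Zbtb8os (0.43), Dctn6 (0.43) and Ppa2 (0.42), and the lowest Dusp23 (−0.36), Ncor1 (−0.37) and Prpf4b (−0.40). For Dctn6, a dynactin subunit, the correlation was 0.71 in 3xTg and 0.15 in WT. Of the other 9 SNARE genes, Bet1l had a mean of 0.20, Stx5a 0.18 and Sec22b 0.15. Stx18 (−0.12), Bnip1 (−0.13) and Gosr1 (−0.0087) had counts in fewer than 34 cells and were not ranked. The means of all 9 lay between the 5th and 95th percentiles of the ranked genes (−0.20 and 0.23). Ykt6 had a correlation with Bet1 of −0.32 in 3xTg and 0.31 in WT. In thinned cells the correlations in 3xTg and WT were 0.0049 and 0.23 for Bet1l and −0.043 and 0.33 for Stx5a. For Sec22b they were 0.054 and −0.054, and for Ykt6 −0.33 and 0.22.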

How the data were processed

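Libraries of single neurons were made with a low-input poly(A) kit and 28 cycles of amplification. The deposited values per cell were estimated counts per gene, which the authors made in Strand NGS 4.0 by trimming reads, aligning them to the mm10 RefSeq transcriptome of 2013.04.01 with at least 90% identity and at most 5% gaps, and removing duplicates. Of the counts above 0, 55.3% were not whole (tolerance 0.001). The deposited log2 values were normalized by the authors with DESeq2 and shifted per gene by an amount not given, and served as an alternative. Strand use in counting is not given in the sources used here. No member overlapped another gene of the table. One element of the 3xTg genotype is not reported here.

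Size factors were calculated as in DESeq2 (median of ratios over 787 genes) on unrounded counts. Sums, thinning and TMM factors used counts rounded to whole numbers. A gene entered if 14 or more of the 68 cells had a count of 1 or more. The members and gene lists were chosen with earlier results of these data known. The genes named were all 10 members, the highest and lowest gene by summed counts of each other list, and the 5 genes most and 3 least like Bet1. Lengths came from GENCODE M21. Cells were not taken as replicates, and no p-value was calculated. No 2 cells had identical values. Doublets were not called, since each library is 1 aspirated cell. The calculations were tested on simulated data. Alternatives were CPM and TMM scaling, thinning, other pseudocounts, a minimum of 10 counts, subsets of cells and leaving out each cell. At totals of 492505 to 1678624 counts per cell, a count of 0 does not show that a transcript was absent. Python 3.11.15 with numpy 2.4.6, pandas 2.3.3, scipy 1.17.1 and matplotlib 3.10.9 was used, and edgeR 4.0.16 in R 4.3.3 for TMM factors.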

Additional observations from a re-analysis of the deposited data

How the results depend on the processing

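Bet1 was higher in 3xTg under every alternative run. Its mean difference was 2.44 in thinned cells, 4.11 with a pseudocount of 0.1, 1.34 with a pseudocount of 10, 1.62 in cells with at least the median number of genes, 2.86 and 1.81 in the first and second pairs of runs, and 2.48 to 2.84 when single cells were left out. Its log2 ratio of summed counts was 1.66 as a mean of CPM per cell, 1.67 with TMM scaling, 1.73 in thinned cells, 0.55 in cells with at least the median number of genes, 1.69 and 0.37 in the pairs of runs, and 1.17 to 1.86 when single cells were left out. The share difference ranged from 43.6 to 47.2 percentage points when single cells were left out. The number of the 10 genes at least 2-fold higher by sums was 0 in cells with at least the median number of genes and 2 in the first pair of runs. The number at least 2-fold lower was 1 (Bnip1) without cells that had a count of another cell type marker, 2 in the first pair of runs and 0 to 1 when single cells were left out. The number with a mean difference of at least 1 was 2 in thinned cells, 1 with a pseudocount of 10, 7 with one of 0.1, 2 and 7 in the first and second pairs of runs, 6 in cells with at least the median number of genes, and 3 to 5 when single cells were left out. The shares of all genes past the same limits were not calculated under these settings, so these numbers of members have no background beside them. The cause of these shifts was not tested. Leaving out single cells for the named genes of the other lists, and levels per kilobase by run, were chosen after seeing the data. For the other 9 genes, 109 of the alternative values moved beyond the counting interval or the leave-one-out range and 80 did not. Among the 80 were the lowest and highest leave-one-out mean differences of each gene, which lay within that range by construction. The study's expression criterion asked for a count in at least 80% of the cells of either genotype. It was met by 4165 genes, among them Bet1, Use1 and Sec22b. Bet1 met it through 3xTg alone (81.8% of cells, against 37.1% in WT). Of these 4165 genes, 2.88% were at least 2-fold higher by summed counts and 4.01% at least 2-fold lower. By means over cells, 27.4% of them had a difference of at least 1. In thinned cells the 5 genes most like Bet1 ranked lower apart from Ppa2 (3), with Snrk at 6, Zbtb8os at 7, Tuba3b at 9 and Dctn6 at 14. No paired analysis was possible because the genotypes share no label numbers and each genotype is 1 sample.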
